A study of Homo sapiens with 4 samples.

Results

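The mitochondrially encoded genes are the 37 genes of the circular mitochondrial genome, which is 16569 bases long in the reference. They were taken as every gene that the deposited RNAseq files place on chromosome MT, out of 57879 genes in all. They comprise 13 mRNAs, 2 rRNAs and 22 tRNAs, with 1 listed transcript for each gene. The cells were T24, an established line from a human bladder carcinoma, grown in RPMI medium with fetal calf serum. There were 2 control libraries and 2 libraries of T24 cells expressing TET1-CD, the catalytic domain of the DNA demethylase TET1. According to the methods of the study, bladder cancer cells were infected with lentiviral particles and kept under puromycin, and the controls carried a vector without insert. The labels call the source of all 4 libraries induced, and no inducing agent is given in the sources used here. Whether the replicates came from separate cultures, and whether each line is a pool or a clone, is not given in the sources used here, so the p-values measure the spread between these libraries only.

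The mitochondrial genome encodes core subunits of respiratory chain complexes I, III and IV and of the ATP synthase (complex V), together with the rRNAs and tRNAs that translate them inside the organelle. All other subunits, and every protein that copies, transcribes and processes mitochondrial nucleic acids, are encoded in the nucleus and imported. Each strand is transcribed as a long precursor, from which tRNAs are cut out to release the mRNAs and rRNAs between them. The heavy strand is the template for both rRNAs and for all mRNAs except MT-ND6.

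This arrangement is visible where the 12S rRNA (MT-RNR1) ends and the 16S rRNA (MT-RNR2) begins, on the plus strand of GRCh37. It is shown because these neighbours are set against each other in the ratios given after the single genes. The capitals mark the valine tRNA MT-TV, which lies between them with no base to spare.
chrM:1582-1690: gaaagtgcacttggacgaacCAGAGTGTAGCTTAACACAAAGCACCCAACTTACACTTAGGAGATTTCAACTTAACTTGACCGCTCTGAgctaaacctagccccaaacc

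Some mRNAs share bases with their neighbour. MT-ATP8 and MT-ATP6 overlap by 46 bases, which is 22.2% of MT-ATP8, and MT-ND4L and MT-ND4 overlap by 7 bases. Fragments inside the overlaps, in capitals, can be assigned to either gene. Of these genes, MT-ATP8 has the largest part inside an overlap. Its values are uncertain, by an amount that the overlap alone does not set.
MT-ATP8 to MT-ATP6, chrM:8507-8592: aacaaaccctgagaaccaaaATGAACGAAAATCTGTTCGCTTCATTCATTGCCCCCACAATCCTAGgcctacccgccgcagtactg
MT-ND4L to MT-ND4, chrM:10740-10786: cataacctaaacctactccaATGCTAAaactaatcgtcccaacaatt

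The libraries held between 17442143 and 20295266 estimated fragments. TET1 had 111 and 83 counts in the control and 2939 and 3310 in the TET1-CD libraries. Of 17 urothelial and epithelial marker genes, 8 had at least 10 counts in every library. Another 8 were below 3 counts throughout, namely KRT5, KRT13, KRT20, UPK1A, UPK1B, UPK3A, CDH1 and TP63. Over all 17 markers, the summed FPKM (fragments per kilobase of transcript, scaled to library size) was between 1434 and 1484 in the control libraries. It was between 1630 and 1664 in the TET1-CD libraries. Of 5 leukocyte markers, 4 were below 3 counts in every library, and 2 endothelial markers summed to at most 0.33 FPKM. The summed FPKM of 5 fibroblast markers was 1.68 and 1.55 in control replicates 1 and 2 and 4.90 and 4.01 in TET1-CD replicates 1 and 2, with COL1A2 below 3 counts throughout. The part of these markers in the results was not tested.

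Mitochondrially encoded RNA made up a smaller share of the TET1-CD than of the control libraries. It was 2.91% and 3.39% of all counts in control replicates 1 and 2, and 2.49% and 2.73% in TET1-CD replicates 1 and 2. Both TET1-CD values were below both control values, although the gap between the groups was narrower than the distance between the control libraries. The mean share was 3.15% ± 0.341 (SD, n = 2) in control and 2.61% ± 0.164 (SD, n = 2) in TET1-CD cells, a ratio of 0.828. With 2 libraries in each group, the two-sided exact permutation test gave p = 0.333, which is the smallest value it can give. The 95% Wilson intervals of the shares, which cover counting error only, were narrow, for example 2.49% to 2.50% for TET1-CD replicate 1, so depth did not limit the comparison. In bulk RNA, less mitochondrial RNA per cell, fewer cells rich in it and more RNA from the nucleus cannot be told apart.

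By class, the mRNAs took 2.37% and 2.70% of the control and 1.98% and 2.19% of the TET1-CD libraries. These groups did not overlap (ratio 0.822, exact permutation test, two-sided, p = 0.333). The rRNAs took 0.540% and 0.687% of the control and 0.510% and 0.540% of the TET1-CD libraries, and here TET1-CD replicate 2 was level with control replicate 1 (ratio 0.856, exact permutation test, two-sided, p = 0.667).

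**Figure D1:**
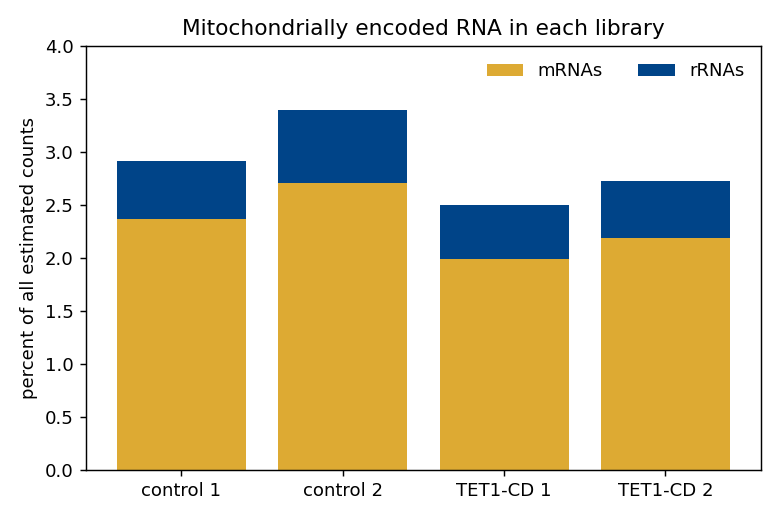
Percent of all estimated counts (vertical axis) that came from mitochondrial mRNAs (lower, yellow) and rRNAs (upper, blue) in each of the 4 libraries. The stacked totals are 2.91% and 3.39% in control and 2.49% and 2.73% in TET1-CD cells. The tRNAs are listed at 0 and add nothing to the bars.

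All 22 tRNA genes were listed at 0 in every library. They are 59 to 75 bases long, and none of the 4068 transcripts that the files list with a length under 100 bases had a count. The shortest transcript with a count was listed at 134 bases. The tRNA class was therefore not measured in these files, and no limit on its level is given.

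The 15 mRNA and rRNA genes ranged widely in level. On the FPKM scale, which divides by transcript length, MT-CO1, the catalytic subunit of cytochrome c oxidase, was the highest, with 5682 and 6423 in control and 4749 and 5267 in TET1-CD cells. It was also the gene with the most counts of the whole table in both control libraries and ranked 2 in both TET1-CD libraries. MT-CO2 and MT-RNR2 followed, and overlapped with each other in control but not in TET1-CD cells. MT-ND4 and MT-CO3 came next and overlapped with each other in both groups. MT-CYB, MT-ND2, MT-ND1, MT-ND4L, MT-ATP6, MT-ND5 and MT-RNR1 lay between 874.0 and 1470 FPKM over the 4 libraries, and most neighbours in that order overlapped. MT-ND6 and MT-ND3 overlapped with each other and lay between 595.8 and 850.2 FPKM, and MT-ATP8 was lowest with 120.3 to 168.7 FPKM. MT-ATP8 and MT-ATP6 are carried on the same mRNA, and the FPKM of MT-ATP8 was 10.8% to 12.7% of that of MT-ATP6. MT-ND4L, likewise carried with MT-ND4, had 46.4% to 49.0% of its FPKM. MT-ATP8 (207 bases) and MT-ND4L (297 bases) are the shortest of the 15 genes, and no transcript listed under 134 bases had a count. The part of gene length in these values, and in the order of the genes by FPKM, was not tested. MT-ND6, transcribed from the opposite strand, had 38.1% to 41.4% of the mean FPKM of the other mRNAs. The labels describe no step that marks strand, so fragments from transcripts of either strand cannot be told apart at any of these genes.

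**Figure D2:**
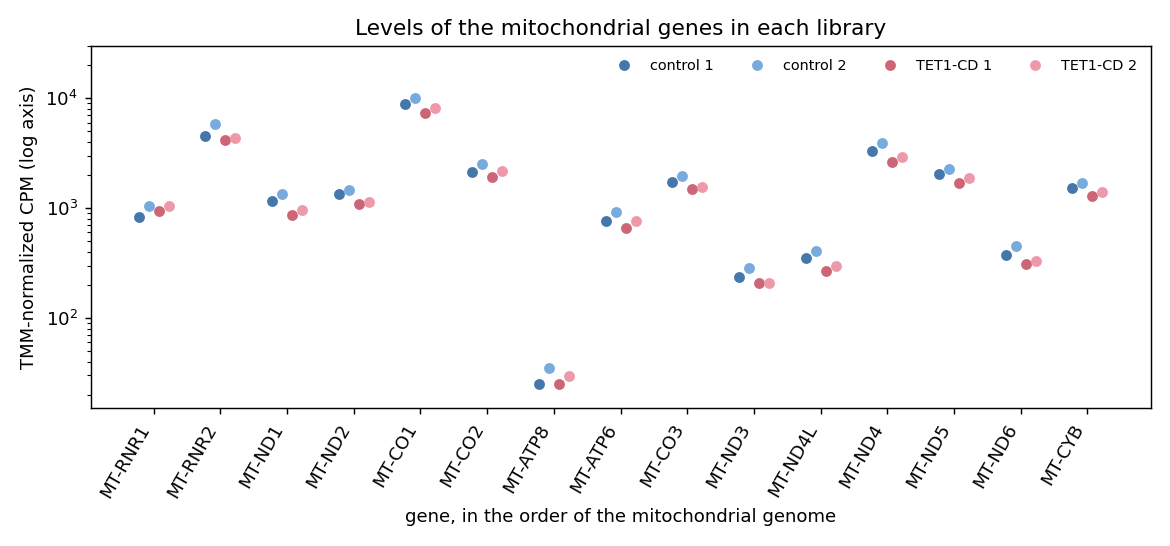
TMM-normalized CPM, counts scaled to library size (vertical axis, logarithmic) of the 15 measured genes in genome order, with 1 point for each library. MT-CO1 is highest, at 7305 to 9981, and MT-ATP8 lowest, at 24.84 to 35.19. In most genes the red TET1-CD points lie below the blue control points, and at MT-RNR1 they do not.

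For the comparison of single genes, edgeR was fitted on the 14573 genes with enough counts, including all 15 measured mitochondrial genes. A gene was called when its Benjamini-Hochberg adjusted p was under 0.05. Of the 13 mRNAs, 10 fell in TET1-CD cells and 3 did not pass, and neither rRNA passed. Over all genes tested, 9.61% were called lower and 10.0% higher. Among 6797 genes at or above the lowest mitochondrial level, 815 were called lower. In edgeR 0 mitochondrial genes were called higher, also 0 at an unadjusted p under 0.05 and 0 in DESeq2. DESeq2 called 9 of the 15 genes lower, against 5.85% of all genes. The changes were small. The median log2 fold change (log2FC, TET1-CD minus control) of the 15 genes was -0.29, the lowest was -0.46, and the median of all genes tested was 0.00095. None reached the fold change of 2 that the study required of a differentially expressed gene. Of all genes tested, 1.04% were called and at least 2-fold lower, and 2.72% were called and at least 2-fold higher. The calls depended on which library was left out. A fit with 1 library left out takes its spread within a group from the 2 libraries of the other group alone. A call lost or gained there does not show which library carried the change. Without TET1-CD replicate 1, edgeR called 0 of the 15 genes (6 at an unadjusted p under 0.05, background 2.63% called lower), and without TET1-CD replicate 2 it called 3, MT-ND1, MT-ND4 and MT-ND4L (background 3.3%). Without control replicate 1 it called 14 genes lower (background 12.7%), and without control replicate 2 it called 10 lower (background 12.5%) and MT-RNR1 higher.

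**Figure D3:**
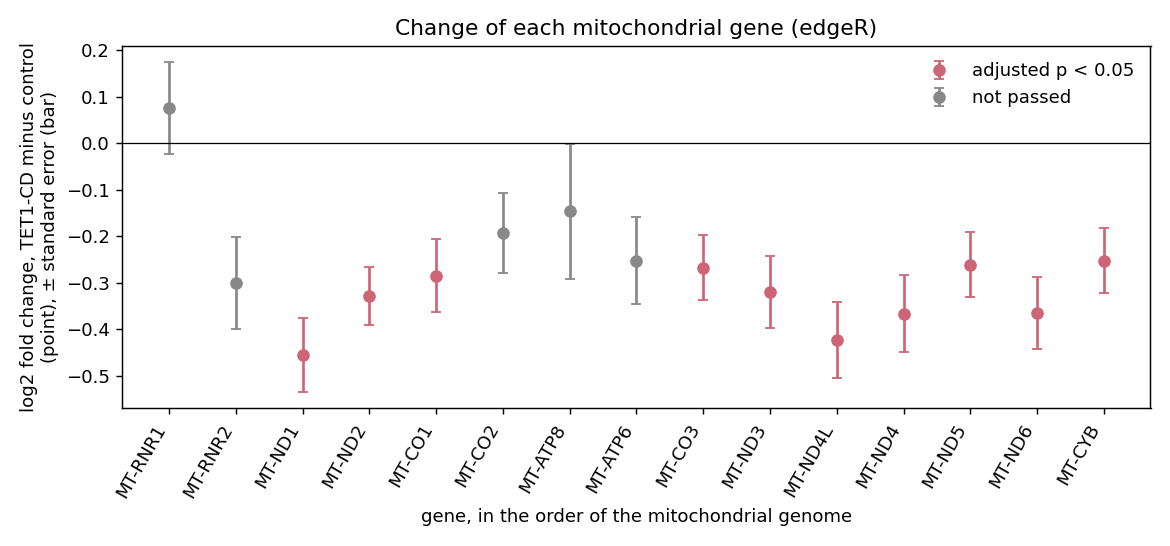
Log2FC, TET1-CD minus control (points), with its standard error (bars), from edgeR for the 15 measured genes in genome order. Red marks the 10 genes with an adjusted p under 0.05, and grey the 5 that did not pass. All 7 MT-ND genes are red, and MT-RNR1 alone lies above 0, at 0.07.

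Every mitochondrial mRNA of complex I fell. Positions in brackets are on the mitochondrial chromosome of GRCh37, on the plus strand except for MT-ND6, and each mitochondrial gene is a single exon. Complex I, NADH dehydrogenase, takes electrons from NADH and is the largest respiratory complex, and the 7 MT-ND proteins form the core of its membrane arm. MT-ND1 (ENSG00000198888, bases 3307 to 4262) had 1153 and 1358 TMM-normalized CPM (counts scaled to library size) in control and 875.0 and 954.9 in TET1-CD cells. Its log2FC was -0.46 (standard error, SE, 0.08, adjusted p = 0.00351), a level 27.1% lower and the largest fall of the 15 genes. MT-ND4L (ENSG00000212907, bases 10470 to 10766), a small subunit, had 350.1 and 409.9 CPM in control and 265.9 and 300.1 CPM in TET1-CD cells, a log2FC of -0.42 (SE 0.08, adjusted p = 0.00604). MT-ND4 (ENSG00000198886, bases 10760 to 12137), its neighbour and a proton-pumping subunit, went from 3316 and 3905 CPM to 2657 and 2942 CPM, a log2FC of -0.37 (SE 0.08, adjusted p = 0.0128). In these 3 genes both TET1-CD libraries were below both control libraries, with a gap smaller than the distance between the control libraries. The call of MT-ND4 was lost in DESeq2 (adjusted p = 0.0642).

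MT-ND6 (ENSG00000198695, bases 14149 to 14673), the only mRNA of the other strand, had 377.2 and 449.8 CPM in control and 312.0 and 329.4 CPM in TET1-CD cells. Its log2FC of -0.37 (SE 0.08, adjusted p = 0.00989) was close to that of MT-ND4. MT-ND2 (ENSG00000198763, bases 4470 to 5511), also a proton-pumping subunit, had 1337 and 1459 CPM in control and 1082 and 1143 CPM in TET1-CD cells, with a log2FC of -0.33 (SE 0.06, adjusted p = 0.00523). MT-ND3 (ENSG00000198840, bases 10059 to 10404) had 236.4 and 283.1 CPM in control against 208.2 and 207.9 CPM (log2FC -0.32, SE 0.08, adjusted p = 0.0179). MT-ND5 (ENSG00000198786, bases 12337 to 14148), at the far end of the membrane arm, fell least of the 7, from 2059 and 2249 CPM to 1697 and 1896 CPM (log2FC -0.26, SE 0.07, adjusted p = 0.0266). All 7 genes had both TET1-CD libraries below both control libraries, which was true of 30.2% of all genes tested, with the opposite in 30.8%.

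Cytochrome c oxidase, complex IV, hands electrons to oxygen, and its 3 mitochondrial subunits form the catalytic core. MT-CO1 (ENSG00000198804, bases 5904 to 7445) had 8786 and 9981 CPM in control and 7305 and 8090 CPM in TET1-CD cells, a log2FC of -0.29 (SE 0.08, adjusted p = 0.0298). MT-CO3 (ENSG00000198938, bases 9207 to 9990) had 1713 and 1965 CPM in control and 1500 and 1554 CPM in TET1-CD cells, a log2FC of -0.27 (SE 0.07, adjusted p = 0.0236). MT-CO2 (ENSG00000198712, bases 7586 to 8269), which takes the electrons from cytochrome c, did not pass. It had 2129 and 2547 CPM in control and 1931 and 2157 CPM in TET1-CD cells, so the groups overlapped (log2FC -0.19, SE 0.09, adjusted p = 0.149). MT-CYB (ENSG00000198727, bases 14747 to 15887), cytochrome b and the only mitochondrial subunit of complex III, fell from 1517 and 1690 CPM to 1282 and 1410 CPM (log2FC -0.25, SE 0.07, adjusted p = 0.0308). In MT-CO1, MT-CO3 and MT-CYB the groups did not overlap.

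Neither ATP synthase mRNA passed the test. MT-ATP6 (ENSG00000198899, bases 8527 to 9207), part of the proton channel, had 764.7 and 923.6 CPM in control and 653.5 and 762.2 CPM in TET1-CD cells. On this scale the groups came close without overlapping, while as a share of all counts (0.0763% and 0.0916% in control, 0.0655% and 0.0765% in TET1-CD cells) they overlapped, and its log2FC was -0.25 (SE 0.09, adjusted p = 0.0868). MT-ATP8 (ENSG00000228253, bases 8366 to 8572), a small stalk protein, had 25.15 and 35.19 CPM in control and 24.84 and 29.37 CPM in TET1-CD cells, with a log2FC of -0.15 (SE 0.15, adjusted p = 0.53). Its raw counts were 509 and 609 in control and 436 and 576 in TET1-CD cells, the fewest of the 15 genes.

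The rRNAs, which are the RNA of the small (12S) and large (16S) mitochondrial ribosomal subunits, did not pass the test. Whether poly(A) selection or rRNA removal was used, on which the values of both depend, is not given in the sources used here. MT-RNR2 (16S, ENSG00000210082, bases 1671 to 3229) had 4578 and 5871 CPM in control and 4155 and 4327 CPM in TET1-CD cells, with a log2FC of -0.30 (SE 0.10) that did not pass (adjusted p = 0.0581), although both TET1-CD libraries were below both control libraries. MT-RNR1 (12S, ENSG00000211459, bases 648 to 1601) had 836.0 and 1055 CPM in control and 935.8 and 1056 CPM in TET1-CD cells, with a log2FC of 0.07 (SE 0.10, adjusted p = 0.647). Its direction depended on the libraries used. The log2FC was 0.25 (adjusted p = 0.00387) without control replicate 2, -0.09 (adjusted p = 0.300) without control replicate 1 and -0.01 without TET1-CD replicate 2.

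Ratios within the mitochondrial RNA do not depend on the scaling of the libraries, and were compared after the values of single genes had been seen. The ratio of 12S to 16S FPKM was 0.298 and 0.294 in control and 0.368 and 0.399 in TET1-CD cells. It was thus 0.296 ± 0.00337 (SD, n = 2) in control and 0.383 ± 0.0216 (SD, n = 2) in TET1-CD cells, 1.29 times as high. Both TET1-CD values were above both control values. The ratio was chosen with the values of its genes known, and no background over other gene pairs was computed. The separation is therefore a description only. Against the summed FPKM of the mRNAs, the 12S rRNA was 3.95% and 4.31% in control and 5.28% and 5.43% in TET1-CD cells. Exact permutation tests of both ratios gave p = 0.333, two-sided, the smallest that these libraries allow.

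The balance among the mRNAs was compared in the same way. Complex I transcripts made up 37.2% and 37.1% of mitochondrial mRNA counts in control and 35.9% and 35.7% in TET1-CD cells, a difference of -1.35 percentage points with SDs of 0.0314 and 0.113 (n = 2). Complex IV transcripts made up 53.1% and 53.2% in control and 54.2% in each TET1-CD library, a difference of 1.06 points with SDs of 0.0239 and 0.0343 (n = 2). Complex III, with MT-CYB alone, made up 6.38% and 6.20% in control and 6.48% in each TET1-CD library, without overlap. Complex V transcripts were 3.32% and 3.52% in control and 3.43% and 3.64% in TET1-CD cells, and overlapped. These shares are parts of the same total, so a lower share of complex I raises the others. As a share of all counts, complex IV transcripts were lower, with 1.26% and 1.44% in control and 1.08% and 1.18% in TET1-CD cells. As shares of all mitochondrial counts, 2 of the 15 genes (MT-RNR1 and MT-CO2) were higher without overlap in TET1-CD cells, 4 (MT-ND1, MT-ND4L, MT-ND4 and MT-ND6) were lower and 9 overlapped. No background was computed for shares of mitochondrial counts, so these 6 of 15 genes cannot be set against one. The CPM scale is a different measure. There, 12 of the 15 genes were lower and 0 higher without overlap, against 30.2% and 30.8% of all genes tested. The values that follow are shares of all mitochondrial counts. MT-ND1 was 3.95% and 3.97% in control and 3.52% in each TET1-CD library, and MT-ND4 was 11.4% in each control library against 10.7% and 10.8%. MT-CO2 had a larger share in TET1-CD cells, with 7.76% and 7.94% against 7.30% and 7.45%. The shares of MT-CO1 overlapped, at 29.2% to 30.1%. The complex I and complex IV comparisons each gave p = 0.333 in an exact permutation test, two-sided.

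**Figure D4:**
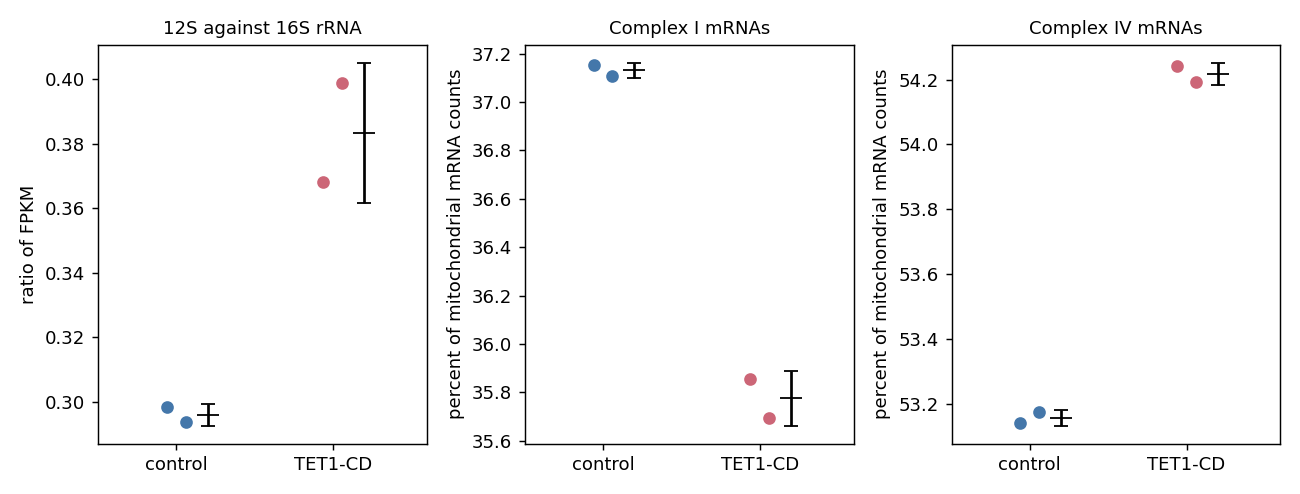
Ratio of 12S to 16S rRNA by FPKM (left), and the percent of mitochondrial mRNA counts from complex I (middle) and complex IV genes (right), in control (blue) and TET1-CD (red) libraries. Points are libraries and black marks are the mean ± SD (n = 2). The vertical axes do not start at 0, and the groups are apart in each panel, by 0.0873 in the ratio and by -1.35 and 1.06 percentage points.

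Features of the genes were set against their log2FCs as a description across 13 mRNAs, which share libraries and are cut from shared precursors. The mRNAs had 39.6% to 47.7% GC and 3 to 56 CpG dinucleotides, the sequence context of DNA methylation that TET enzymes act on. Spearman's rho with the log2FC was 0.14 for CpG per 100 bases, -0.05 for GC content, -0.06 for length and 0.05 for position along the genome. Over 15 genes, with the rRNAs added, rho was 0.31, 0.07, -0.05 and -0.14 in the same order. The lengths of 6 of the 13 mRNAs are not multiples of 3, because their stop codons are completed by the poly(A) tail. These 6 are MT-ND1, MT-ND2, MT-CO3, MT-ND3, MT-ND4 and MT-CYB.

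Mitochondrial fragments can be assigned to copies of mitochondrial DNA in the nuclear genome. The files list 188 such copies, of which 2 had at least 10 counts in a library, both from a block near the start of chromosome 1. MTND2P28 (GRCh37 chromosome 1, 565020 to 566063) has 98.4% of its bases in common with MT-ND2, with 17 differences over 1042 bases. MTATP6P1 (569076 to 569756) has 98.5% in common with MT-ATP6, with 10 differences over 681 bases. The longest runs without a difference were 266 bases for MT-ND2 and 141 bases for MT-ATP6. The stretches shown are ones in which the differences lie closer together than over the whole pair. They hold 5 of the 17 differences of MT-ND2 and 4 of the 10 of MT-ATP6. Capitals mark the bases that differ.
MT-ND2, chrM:4890-4999: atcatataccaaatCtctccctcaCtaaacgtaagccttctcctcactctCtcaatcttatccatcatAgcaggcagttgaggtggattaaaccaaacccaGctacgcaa
MTND2P28, chr1:565440-565549: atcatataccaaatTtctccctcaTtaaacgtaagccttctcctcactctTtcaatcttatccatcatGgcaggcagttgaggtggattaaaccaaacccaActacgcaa
MT-ATP6, chrM:8647-8726: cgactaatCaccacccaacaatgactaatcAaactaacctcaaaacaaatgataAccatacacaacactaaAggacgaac
MTATP6P1, chr1:569196-569275: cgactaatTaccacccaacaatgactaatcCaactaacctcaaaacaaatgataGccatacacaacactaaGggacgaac

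MTND2P28 had 1708 and 1572 counts in control and 1218 and 1422 in TET1-CD cells, which is 6.23% to 6.41% of the counts of MT-ND2 in each library. Its log2FC of -0.30 (SE 0.06, adjusted p = 0.00908) was close to that of MT-ND2. MTATP6P1 had 1319 and 1636 counts in control and 1091 and 1392 in TET1-CD cells, 8.52% to 10.2% of those of MT-ATP6, and did not pass (log2FC -0.26, SE 0.14, adjusted p = 0.237). MT-ND2 with its copy took 0.142% and 0.154% of all counts in control and 0.115% and 0.122% in TET1-CD cells. MT-ATP6 with its copy took 0.0828% and 0.101% in control and 0.0717% and 0.0836% in TET1-CD cells, and overlapped, as the shares of MT-ATP6 alone did.

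The nuclear genes of mitochondrial function were counted in 8 lists. Of 265 tested genes, 23 (8.68%) rose and 2 (0.755%) fell, against 10.0% and 9.61% of all genes tested. DESeq2 called 13 higher and 0 lower, against 6.09% and 5.85% of all genes. At an unadjusted p under 0.05, edgeR had 57 higher and 12 lower, against 16.8% and 16.4% of all genes. Of the genes named from these lists with an edgeR call, HSD17B10, TUFM, PRKAA2, MFN2, MRPL34 and MRPL42 did not pass in DESeq2. The transcription list held 10 tested genes, among them the polymerase and its factors, and 0 passed in edgeR, also 0 at an unadjusted p under 0.05 and 0 in DESeq2. Of these genes, TFB2M, an initiation factor, had a log2FC of 0.19 (adjusted p = 0.169) and MRPL12, which is also a ribosomal protein, one of 0.09 (adjusted p = 0.292). TFB1M, the methyltransferase that modifies the 12S rRNA, had 10.28 and 11.38 CPM in control and 8.547 and 10.61 CPM in TET1-CD cells (adjusted p = 0.429).

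Of 21 genes for maintenance of mitochondrial DNA, 4 rose (19.0%, against 10.0% of all genes tested) and 0 fell (against 9.61%). TYMP, thymidine phosphorylase, which breaks down thymidine, rose from 32.41 and 46.45 CPM to 87.64 and 84.09 CPM (log2FC 1.13, SE 0.13, adjusted p = 0.000289). It was the only gene of the 8 lists past a fold change of 2. ATAD3A and ATAD3B, neighbouring paralogs of similar sequence, between which fragments may be split, rose by 0.35 and 0.42 on the log2 scale (adjusted p = 0.00543 and 0.00358 from edgeR). Among 35 genes of RNA processing and stability, 3 rose and 0 fell. The 3 are 8.57% of the list, not above the 10.0% of all genes tested. TBRG4, a member of the FASTK family of RNA-binding proteins, had a log2FC of 0.26 (adjusted p = 0.0112). NGRN, of a group of proteins that the 16S rRNA depends on, had one of 0.23 (adjusted p = 0.0168), and HSD17B10, a subunit of the RNase P that cuts the 5′ ends of tRNAs, one of 0.21 (adjusted p = 0.0375).

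Of 77 mitochondrial ribosomal protein genes, 4 rose (5.19%) and 1 fell (1.30%), against 10.0% and 9.61% of all genes tested. MRPS30 and MRPL42 had log2FCs of 0.34 and 0.25 (adjusted p = 0.00555 and 0.0275 from edgeR), and MRPL34 fell by 0.36 on the log2 scale (adjusted p = 0.0294). Among 17 translation and assembly factors, only TUFM, the elongation factor, passed (5.88% of the list), with a log2FC of 0.19 (adjusted p = 0.0282). C12orf65 and TSFM had -0.21 and -0.20 and did not pass. Of 14 regulators of biogenesis, PRKAA2 (7.14% of the list), a catalytic subunit of AMP-activated kinase, fell by 0.35 on the log2 scale (adjusted p = 0.0499). The coactivator PPARGC1B (0.51) and the transcription factor NRF1 (0.27) did not pass (adjusted p = 0.0608 and 0.0722 from edgeR).

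Genes for membrane and matrix proteins were 17, and 4 rose (23.5%, against 10.0% of all genes tested) while 0 fell (against 9.61%). DESeq2 called 2 of them higher and 0 lower. Whether these RNAs follow mitochondrial content was not tested. TOMM40, the import channel, had a log2FC of 0.35 (adjusted p = 0.00224), HSPD1, the matrix chaperonin, 0.22 (adjusted p = 0.0167) and MFN2, a fusion protein, 0.18 (adjusted p = 0.0456). Of 77 nuclear respiratory chain genes, 7 rose (9.09%, against 10.0% of all genes tested) and 0 fell, with a median log2FC of 0.05. NDUFB9 (0.28), NDUFS5 (0.24) and COX5A (0.28) had the smallest p of this list. For complex I, 38 nuclear genes had a median log2FC of 0.07, with 3 higher and 0 lower. Against 10.0% of all genes tested, these nuclear genes were not called higher more often. All 7 mitochondrial genes of complex I were lower, with a median of -0.37. For complex IV the medians were 0.05 over 11 nuclear and -0.27 over 3 mitochondrial genes. The calls in the 8 lists depended on the libraries, as did those over all genes. Without TET1-CD replicate 1, 3 genes of the lists were called (5.48% of all genes), and without TET1-CD replicate 2, 4 were (6.77%). Without control replicate 1, 44 were called (25.1%), and without control replicate 2, 51 were (24.9%).

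**Figure D5:**
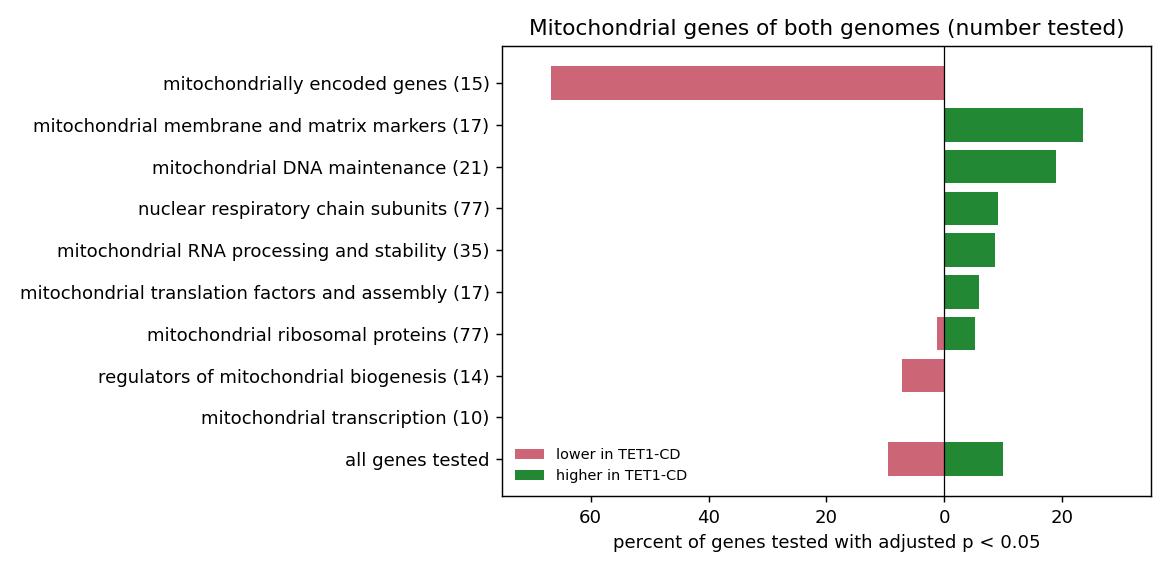
Percent of tested genes with an edgeR adjusted p under 0.05, lower in TET1-CD cells to the left (red) and higher to the right (green), for the mitochondrially encoded genes, 8 lists of nuclear genes and all genes tested. Numbers of genes are in brackets. The mitochondrially encoded genes reach 66.7% on the left (10 of 15) and 0 on the right, while no nuclear list passes 7.14% on the left.

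Other RNA classes that vary with RNA selection were also measured. Histone genes, whose mRNAs mostly lack a poly(A) tail, were 0.0135% and 0.0179% of counts in control and 0.0172% and 0.0186% in TET1-CD cells, and overlapped. The nuclear RNA MALAT1 had 426.0 and 441.4 CPM in control and 386.2 and 390.4 CPM in TET1-CD cells (adjusted p = 0.0550). NEAT1, the scaffold of paraspeckles, fell from 168.0 and 180.5 CPM to 101.0 and 104.2 CPM (log2FC -0.76, SE 0.06, adjusted p = 2.46e-05). The other tested members of this list of nuclear-retained or non-polyadenylated RNAs did not pass. RN7SK had a log2FC of -0.83 (adjusted p = 0.232), RN7SL1 one of 0.31 (adjusted p = 0.266) and RN7SL2 one of 0.016 (adjusted p = 0.962). The part of these RNAs in the result for the mitochondrial genes was not tested.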

How the data were processed

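RNAseq libraries of control and TET1-CD T24 cells (2 each) were analysed. For each of 195700 transcripts, the authors deposited estimated counts, which need not be whole, and FPKM values, which account for the length of a transcript and the depth of its library. Per the labels' processing notes, cutadapt 1.9.1, HISAT2 2.0.1, HTSeq 0.6.1 and DESeq2 were named without roles, with build hg19. The quantifier of the estimated counts is not given in the sources used here. The labels give poly(A) selection or rRNA removal as alternatives, and which was used, on which the rRNA values depend, is not given in the sources used here.

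Counts were summed per gene and rounded. edgeR 4.0.16 in R 4.3.3 (glmQLFit, glmQLFTest, TMM, filterByExpr, no block) was fitted on all genes, with Benjamini-Hochberg adjustment over 14573 genes. It was also run on simulated data, in which every planted change was 2-fold or more. That run does not bear on changes as small as those of the mitochondrial genes. A standard error is the absolute log2FC over the root of its F statistic. Shares were compared by exact permutation tests (scipy 1.17.1). Sequences were read from GRCh37, where the 15 measured genes lie at the positions the files give. Alternatives were DESeq2 1.42.0, limma-voom (limma 3.58.1), other scalings and filters, a replicate block and the omission of each library. The rule named all mRNA and rRNA genes, copies with 10 counts, TET1 and the 3 genes with the smallest p per nuclear list. The nuclear-retained RNAs, the histone genes and the ratios were outside that rule and chosen with values known. Members and lists were chosen with earlier results of these data known. The name of 1 marker gene is not reported here.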

Additional observations from a re-analysis of the deposited data

How the results depend on the processing

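The number of mitochondrial genes called was 10 and stayed 10 with RLE or library size scaling, with library sizes free of mitochondrial genes, with 10 counts in every library and with limma-voom. It was 9 with DESeq2 (MT-ND4 was lost, adjusted p = 0.0642), 13 without a filter, 0 at 2-fold or more, and 0 to 14 with a library left out. A replicate block gave 13 calls, with MT-RNR2, MT-CO2 and MT-ATP6 added (11.1% of all genes were called lower in that fit). The replicate numbers stand for no stated culture or batch, and the correlation of same-numbered deviations was 0.305 over the 15 mitochondrial genes and 0.00713 over all genes tested. This correlation runs across genes, so it cannot show a shift common to the 15 genes. Replicate 1 had the lower mitochondrial share in both groups (2.91% against 3.39% in control, 2.49% against 2.73% in TET1-CD cells). Whether same-numbered libraries belong together was not tested. The share ratio of all mitochondrial genes was 0.821 to 0.836 under other denominators and units, 0.831 with the replicate block and 0.770 to 0.897 with a library left out. For the ratio of 12S to 16S rRNA, alternatives chosen after seeing the data gave 1.24 to 1.35 times the control value. Directions turned in 3 genes with a library left out. The log2FC of MT-RNR1 ranged from -0.091 (without control replicate 1) to 0.25, and was -0.01 without TET1-CD replicate 2. That of MT-ATP8 ranged from -0.38 to 0.11 and that of MTATP6P1 from -0.51 to 0.031, both positive without control replicate 2. The cause was not tested. For the nuclear lists, 25 calls became 13 with DESeq2, 1 at 2-fold or more, 27 with the replicate block and 3 to 51 with a library left out. No alternative for the tRNA share could give a value, since it is 0. With 2 libraries in each group, the spread between libraries and not the depth limits these values.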
